A study of Mus musculus with 6 samples.

Results

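The type 2 effector genes described here are 7 of the 13709 genes in a table of RNA-Seq counts from mouse Tregs. They are the cytokine genes Il4, Il5 and Il13, the transcription factor genes Gata3 and Maf, the receptor gene Ptgdr2 and the enzyme gene Hdc. A gene entered when its symbol in the table, with spaces removed, was one of these names. The names were chosen by their KO-to-WT fold changes and counts in these same samples, and the study itself showed Gata3, Il4, Il5 and Il13 as Th2 genes that differed in them. The differences of the 7 genes are therefore given as a description, without a test, and they are not independent evidence of a direction.

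Type 2 responses act against worms and drive allergy, and they are made by Th2 cells together with innate lymphoid cells, mast cells, basophils and eosinophils. GATA-3, the product of Gata3, directs Th2 differentiation and opens the chromatin around Il4, Il5 and Il13, and c-MAF, the product of Maf, activates Il4. IL-4 acts on T and B cells through STAT6, IL-5 sustains eosinophils, and IL-13 acts on epithelium, smooth muscle and macrophages. Ptgdr2 encodes CRTH2, the prostaglandin D2 receptor by which Th2 cells are recruited, and Hdc encodes histidine decarboxylase, which makes histamine. GATA-3 and c-MAF are also made by normal Tregs, which otherwise keep type 2 cytokine genes silent.

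The samples were 3 WT (Foxp3Cre) and 3 KO (Foxp3Cre Zfp335fl/fl) preparations of CD4+YFP+CD25+ Tregs from C57BL/6 mice. The mice were 2 weeks old. Cre recombinase and YFP were made from the Foxp3 locus in both groups, so WT cells also carried the Cre allele, and the floxed Zfp335 alleles were deleted in cells that had expressed Foxp3. KO mice develop inflammation early in life, so the state of the host and the loss of Zfp335 in the sorted cells cannot be told apart here. The labels named lymph nodes in some fields and spleen in others, gave no batch, and did not say how many mice made up a sample. The spread between samples may therefore be partly technical, and p-values measure that spread only.

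Library totals were 32032631 to 40728419 counts, and levels are given as CPM, the counts of a gene relative to its library total after TMM scaling (trimmed mean of M values). A level of 3 counts, the least that was read as above 0, equaled 0.0747 to 0.0913 CPM, a limit that covers counting error only. Zfp335 ranged from 94.3 to 103 CPM among WT samples and from 37.0 to 40.2 CPM among KO samples, in the direction the labels give. The 3 WT samples had 738, 642 and 1190 CPM of Foxp3, and the KO samples had 460 to 472 CPM. WT replicate 3 stood apart from the rest of its group, with 1047 genes (7.70% of those tested) more than 2-fold from both other WT samples, against 294 and 428 for WT replicates 1 and 2 and 178 to 199 for the KO samples. Without it 26.8% of genes were called, and pathway genes whose calls changed without it are named with both values.

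Differences are given as log2 fold changes of KO over WT (log2FC). Calls required more than a 1.5-fold difference together with p below 0.05 and adjusted p below 0.1, from edgeR's quasi-likelihood test over all genes. Of 13594 genes tested, 24.4% were called, 11.9% higher and 12.5% lower in KO, and for 53.8% the 3 KO and 3 WT values did not overlap. All 7 type 2 effector genes passed the low-count filter, 6 of them met the cutoffs as higher in KO, and for the same 6 the groups did not overlap. Maf did neither. Because this contrast chose the genes, nothing is read from these counts.

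The 3 cytokine genes lie close together on chromosome 11 (positions here are in GRCm38, which mm10 denotes, from GENCODE M21). Il4 occupies chr11:53602982-53618669 and Il13 chr11:53631324-53634702, both on the minus strand, and Il5 occupies chr11:53720794-53725106 on the plus strand. The DNA repair gene Rad50 lies between Il13 and Il5. The 250 bases before the RefSeq transcription start of each cytokine gene are shown because these genes are known targets of GATA-3 or c-MAF, whose own RNAs were measured here. Capitals mark a GATA motif (AGATAA or AGATAG or TGATAA or TGATAG) or TGCTGA, which is part of the c-MAF recognition element, on either strand, and the last base printed is the one next to the start.
Il4 upstream (minus strand, chr11:53618666-53618915): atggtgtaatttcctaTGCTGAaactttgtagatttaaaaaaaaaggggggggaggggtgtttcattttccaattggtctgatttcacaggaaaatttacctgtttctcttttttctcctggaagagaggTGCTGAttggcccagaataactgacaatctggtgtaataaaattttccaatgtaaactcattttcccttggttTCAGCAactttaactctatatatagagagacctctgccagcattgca
Il13 upstream (minus strand, chr11:53634703-53634952): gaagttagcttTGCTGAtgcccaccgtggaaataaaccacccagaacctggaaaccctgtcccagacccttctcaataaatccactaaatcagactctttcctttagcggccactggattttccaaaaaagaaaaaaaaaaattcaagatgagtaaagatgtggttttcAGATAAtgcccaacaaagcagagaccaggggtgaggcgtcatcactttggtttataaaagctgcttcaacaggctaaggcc
Il5 upstream (plus strand, chr11:53720544-53720793): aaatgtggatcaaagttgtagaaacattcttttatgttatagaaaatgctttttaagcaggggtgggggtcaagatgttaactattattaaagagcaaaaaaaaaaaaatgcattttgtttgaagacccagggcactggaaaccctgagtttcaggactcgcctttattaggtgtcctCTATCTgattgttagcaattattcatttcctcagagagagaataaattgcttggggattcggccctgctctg

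Counted backwards from the base before the start, the Il4 window held TGCTGA 3 times, at -234 to -229, -120 to -115 and -47 to -42, and no GATA motif. The Il13 window held a GATA motif at -81 to -76 and TGCTGA at -239 to -234, and the Il5 window held a GATA motif at -72 to -67. Among the other genes with a RefSeq window, Hdc had 1 GATA motif, Gata3 had 1 TGCTGA, a second Il4 start had 1 GATA motif, and Ptgdr2 had neither. Of 32851 such windows of 27025 genes in the same RefSeq set, 26.5% held a GATA motif and 16.1% held TGCTGA. Cores of the NFAT motif (GGAAA, in 55.6% of windows) occurred 5 times in Il4, 4 times in Il13 and 2 times in Il5. The motif of STAT factors (TTC and GAA with 4 bases between them) was in 5.85% of windows and in that of Il4. TATAAA, in 12.4% of windows, was found in the Il13 window. These are matches of letters, and no binding was measured.

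Il13 was the most abundant of the cytokine transcripts in KO Tregs. It had 3, 14 and 7 counts in WT replicates 1 to 3 and 4349, 5346 and 4574 counts in KO replicates 1 to 3, which was 0.0815, 0.426 and 0.210 CPM against 119, 133 and 129.7 CPM. The WT values lay at the floor or a few times above it, and all KO values were high and close to each other. The mean went from 0.239 ± 0.174 to 127 ± 7.33 CPM (SD, n = 3), a log2FC of 9.07 (SE 0.28) or 536-fold. With so few WT counts, the log2FC was 8.63 without WT replicate 1 and 9.76 without WT replicate 2.

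Il5, the eosinophil factor, was at 0 counts in each WT sample and had 1028, 1233 and 1130 counts in KO. Those KO counts were 28.1, 30.7 and 32.1 CPM, with a mean of 30.3 ± 1.99 CPM (SD, n = 3). Against the floor of 3 counts in a WT library, Il5 was at least 332-fold higher in KO, or at least 8.37 on the log2 scale. An antisense gene, Gm12214, lies within the span of Il5, and whether counting used the strand of the reads was not stated.

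Il4 had the least RNA of the 3 cytokines. Its counts were 15, 11 and 9 in WT and 351, 310 and 304 in KO, or 0.407, 0.335 and 0.270 CPM against 9.61, 7.72 and 8.62 CPM. The mean went from 0.338 ± 0.0686 to 8.65 ± 0.946 CPM (SD, n = 3), a log2FC of 4.66 (SE 0.26) or 25.3-fold. The groups were far apart, and the KO samples varied by 10.9% of their mean, where counting error alone would give 5.58%.

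Gata3, which encodes the GATA-3 factor, was already abundant in WT Tregs. It lies at chr2:9857078-9890034 on the minus strand and had 4930, 4621 and 5017 counts in WT and 8124, 10234 and 8990 counts in KO. The levels were 134, 141 and 151 CPM in WT and 222, 255 and 255 CPM in KO, so the highest WT sample lay below the lowest KO sample. The mean went from 142 ± 8.45 to 244 ± 18.8 CPM (SD, n = 3), a log2FC of 0.78 (SE 0.08) or 1.72-fold. This was the smallest difference among the 6 genes that met the cutoffs. The gene 9230102O04Rik lies within the span of Gata3 on the same strand and had 1 to 10 counts in WT and 21 to 50 in KO. The genes Gm13256 and 4930412O13Rik overlap Gata3 on the other strand.

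Maf, at chr8:115682942-115707794 on the minus strand, was the gene that did not meet the cutoffs. It had 4785, 4602 and 7965 counts in WT and 5706, 7228 and 5911 in KO, or 130.0, 140.1 and 239 CPM against 156, 179.9 and 168 CPM. WT replicate 3 was the highest of all 6 samples, WT replicates 1 and 2 were the lowest, and the groups overlapped. WT averaged 169.8 ± 60.4 CPM and KO averaged 168 ± 11.9 CPM (SD, n = 3), a log2FC of -0.02 (SE 0.22). Without WT replicate 3 the value was 0.31, which is under the fold cutoff. The antisense gene Gm15655 overlaps Maf.

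Ptgdr2, the CRTH2 gene, was nearly absent in WT and present in every KO sample. It lies at chr19:10937160-10942511 on the plus strand and had 0, 0 and 1 counts in WT and 421, 451 and 395 counts in KO. The KO samples had 11.5, 11.2 and 11.2 CPM, with a mean of 11.3 ± 0.178 CPM (SD, n = 3), and WT replicate 3 had 0.0300 CPM. With a single count in WT, the ratio of the groups was 1165, with a 95% exact interval from 209 to 46049 that covers counting error only, and without WT replicate 3 no WT count was left. The neighboring gene Ccdc86 overlaps the end of Ptgdr2 on the other strand. WT replicates 1 to 3 held 970, 823 and 904 counts of Ccdc86 beside the 0, 0 and 1 of Ptgdr2. Mean Ccdc86 levels of the WT and KO groups were 26.2 ± 1.06 and 29.2 ± 0.255 CPM (log2FC 0.16, edgeR adjusted p 0.165). Whether Ccdc86 reads entered the Ptgdr2 counts was not tested.

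Hdc, which encodes histidine decarboxylase, lies at chr2:126593667-126619299 on the minus strand. It had 39, 20 and 24 counts in WT and 1360, 1522 and 1263 counts in KO, or 1.06, 0.609 and 0.721 CPM against 37.2, 37.9 and 35.8 CPM. The WT samples were low but above the floor, and no KO sample came near them. The mean went from 0.796 ± 0.235 to 37.0 ± 1.05 CPM (SD, n = 3), a log2FC of 5.52 (SE 0.19) or 45.9-fold. In bulk samples, more cells with a transcript and more of it per cell cannot be told apart, and this holds for each of the 7 genes.

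**Figure D1:**
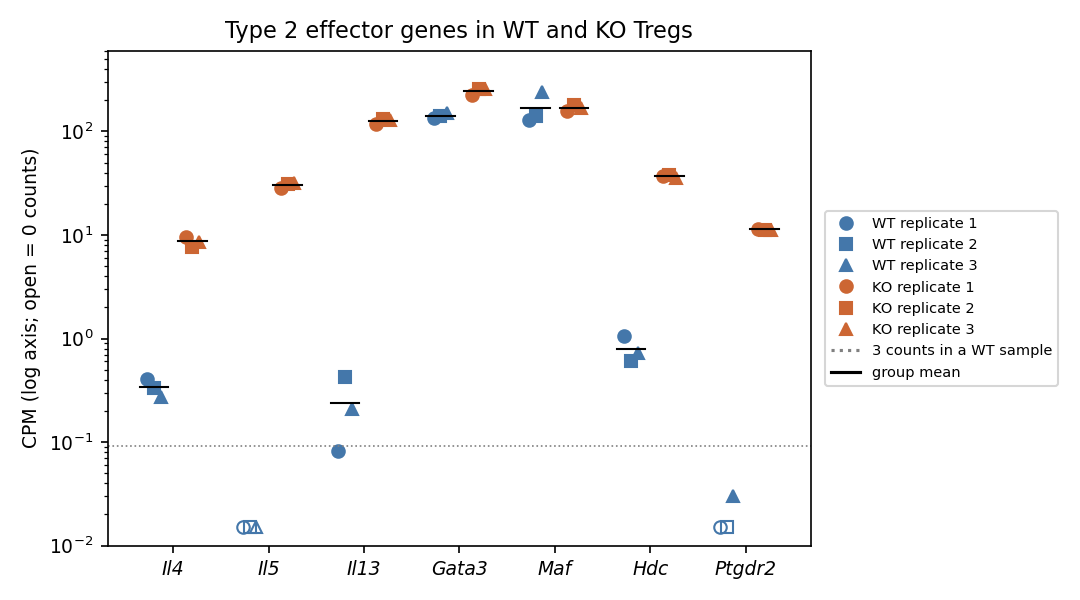
CPM (log axis) of the 7 type 2 effector genes in each of 3 WT (blue) and 3 KO (orange) samples, with lines at the means of groups that had more than 1 count, open symbols for 0 counts placed near the lower edge, and a dotted line at 3 counts in a WT sample. Il5 had no WT count and 28.1 to 32.1 CPM in KO, Gata3 differed by 1.72-fold between groups that were both above 130 CPM, and the Maf samples of the groups overlapped with WT replicate 3 highest at 239 CPM.

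Levels of different genes were compared per length, as CPM per kilobase of annotated exon. In KO the order was Il13 at 105.6 ± 6.08, Gata3 at 61.3 ± 4.72, Maf at 20.4 ± 1.44, Il5 at 19.7 ± 1.29, Il4 at 7.05 ± 0.771, Hdc at 5.79 ± 0.165 and Ptgdr2 at 4.28 ± 0.0675 (CPM per kilobase, SD, n = 3). Maf and Il5 were neighbors in this order whose samples overlapped. In WT, Gata3 at 35.6 ± 2.12 and Maf at 20.6 ± 7.33 CPM per kilobase stood far above Il4 at 0.275 ± 0.0559, Il13 at 0.199 ± 0.145 and Hdc at 0.125 ± 0.0367. The SD of Il13 in WT was larger than its distances to Il4 and Hdc. Among all genes in the table, the mean CPM of Il13 was at the 86.2 percentile in KO and at the 1.98 percentile in WT, and that of Gata3 at the 93.8 and 88.2 percentiles.

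The proportions of the cytokine transcripts were similar between KO samples. Per kilobase, the ratio of Il13 to Il5 was 5.40, 5.53 and 5.16 in KO replicates 1 to 3, and the ratio of Il5 to Il4 was 2.34, 3.18 and 2.97. Of the 3 transcripts together, Il13 made up 79.8 ± 0.904%, Il5 14.9 ± 0.435% and Il4 5.35 ± 0.846% (SD, n = 3). The exon length of Il4 was the uncertain term, since all annotated exons cover 1227 bases and the longest transcript has 605. With the longest transcript, the mean ratio of Il5 to Il4 fell from 2.83 to 1.39 and that of Il13 to Il4 from 15.2 to 7.48, and the order of the 3 was the same.

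Profiles over the 6 samples were compared by the root mean square distance between mean-centered log2 values. The type 2 effector genes themselves were left out of the candidates, and the genes nearest to Il13, Gata3 or Maf were listed. For Il13 these were Ifitm1, Klrc1 and Epas1, at distances of 0.609, 0.717 and 1.10, all farther than the nearest profiles of the other genes compared. Epas1, which encodes HIF-2α, had 1.29 to 2.31 CPM in WT and 204 to 210.2 CPM in KO. For Gata3 they were Sephs2, D030056L22Rik and Plekho2, at 0.0377, 0.0391 and 0.0401, and for Maf they were Sec24a, Vcpip1 and Lgmn, at 0.0477, 0.0497 and 0.0597. Sec24a was 76.2, 86.4 and 148.6 CPM in WT and 96.8, 102.1 and 101.0 CPM in KO, with its highest value in WT replicate 3, like Maf. These distances over 6 samples are descriptions, and genes with like differences between the groups are near each other by construction.

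To place the 7 genes in their pathway, 120 other genes were listed in 9 groups from general knowledge. Of these, 96 had a row in the table and 95 were tested. In KO 27 were called higher and 13 lower, which is 42.1% called beside 24.4% of all genes, and the median log2FC was 0.21 against -0.04 over all genes tested. Without WT replicate 3, when all 96 were tested, the counts were 40 higher and 14 lower, or 56.2% beside 26.8% of all genes. The lists were written with earlier results of these data known. These shares, and those of each list below, are therefore descriptions and not independent evidence about the pathway.

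**Figure D2:**
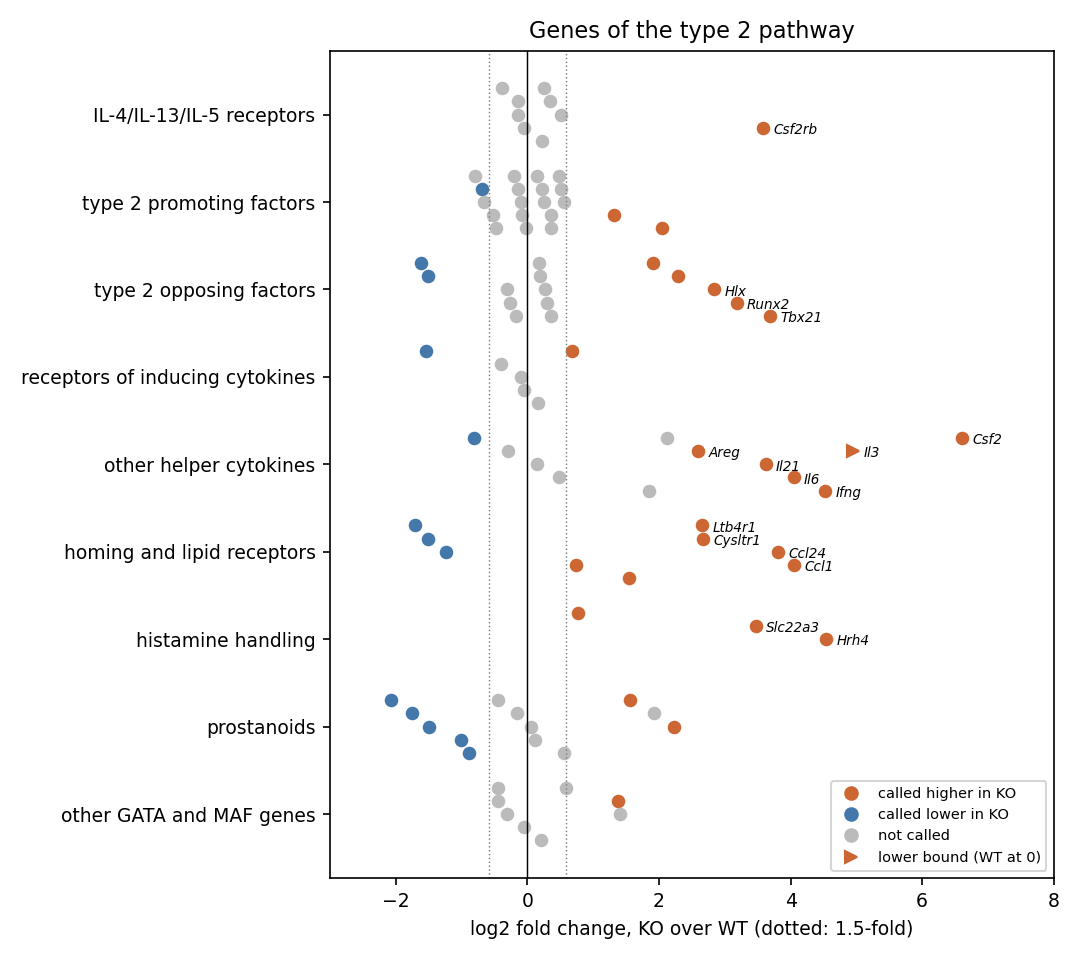
Fitted log2 fold change of KO over WT (horizontal axis) of the 95 tested pathway genes in 9 groups (rows), colored by call, with dotted lines at the 1.5-fold cutoff and a triangle for the lower bound of Il3, which had no count in WT. Receptor and type 2 promoting genes lie mostly between the dotted lines, while the opposing factors, other helper cytokines and mediator genes spread to both sides.

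Of 9 tested receptors and signal transducers of IL-4, IL-13 and IL-5, Csf2rb was called (11.1%, beside 24.4% of all genes), and the median log2FC was 0.21. Leaving out WT replicate 3 gave 3 calls, all higher (33.3%, beside 26.8%), with Irs2 and Il13ra1 added. Csf2rb encodes the β chain shared by the receptors of IL-5, IL-3 and GM-CSF, and it went from 0.488 ± 0.403 to 5.94 ± 0.527 CPM (log2FC 3.58, SE 0.51, edgeR adjusted p 0.00138), and its log2FC was 4.51 without WT replicate 1. Il4ra, the receptor chain common to IL-4 and IL-13, was 241 ± 41.6 and 305 ± 5.90 CPM (log2FC 0.34, adjusted p 0.0540). Stat6, the transcription factor that these receptors activate, was 251 ± 27.1 and 226 ± 2.47 CPM (log2FC -0.15, adjusted p 0.213). Il5ra, Il13ra2 and Irs1 had no row used here. Il13ra1, the receptor chain that binds IL-13, had 7, 2 and 36 counts in WT and 14, 25 and 20 in KO, and its log2FC was 0.24 and not called with all samples but 2.01 (edgeR adjusted p 0.0472) without WT replicate 3. Irs2, an adaptor of the IL-4 receptor, had 701, 671 and 2520 counts in WT and 1927, 2315 and 1879 in KO, and its log2FC changed in the same way from 0.51, not called, to 1.46 (adjusted p 2.57e-09).

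Among 20 genes known to promote type 2 differentiation, 2 were called higher and 1 lower (15%, beside 24.4% of all genes), with a median log2FC of 0.07. When WT replicate 3 was left out, 4 were higher and 2 lower (30.0%, beside 26.8%). Bhlhe40, whose product restrains IL-10 in helper T cells, rose from 131 ± 52.8 to 542 ± 14.2 CPM (log2FC 2.05, SE 0.25, edgeR adjusted p 0.000653). Satb1, which encodes a chromatin organizer that binds the type 2 cytokine locus, rose from 293 ± 70.7 to 728 ± 19.7 CPM (log2FC 1.31, SE 0.15, adjusted p 0.000598). Tcf7, which encodes TCF-1, fell from 523 ± 30.7 to 325 ± 12.03 CPM (log2FC -0.69, SE 0.07, adjusted p 0.000374). The genes not called included Irf4, Batf, Junb, Stat5a, Stat5b and Notch1. Calls gained without WT replicate 3 were Ecm1 (log2FC from 0.48 to 0.66), Nfil3 (from -0.08 to 0.81) and Gfi1 (from -0.47 to -0.63), and Rbpj gained one without WT replicate 2 (from 0.56 to 0.61). For Junb, WT replicate 3 had 61082 counts, against 20420 and 19022 in WT replicates 1 and 2, and the log2FC changed from -0.66 to 0.14 without it.

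Of 15 factors known to oppose GATA-3 or type 2 differentiation, 5 were called higher and 2 lower (46.7%, beside 24.4% of all genes). Their median log2FC was 0.26. Tbx21 encodes T-bet, which directs Th1 differentiation and blocks GATA-3. It rose from 5.51 ± 0.505 to 71.3 ± 2.73 CPM (log2FC 3.69, SE 0.10, edgeR adjusted p 1.31e-06). Runx2 rose from 25.1 ± 1.70 to 227 ± 16.3 CPM (log2FC 3.18, adjusted p 1.38e-06). Eomes, which encodes another T-box factor, rose from 2.31 ± 0.807 to 11.3 ± 0.238 CPM (log2FC 2.29, adjusted p 0.000437). Hlx, a partner of T-bet, was called at 0.0892 ± 0.132 and 0.654 ± 0.260 CPM, but it lost the call without WT replicate 1, KO replicate 1 or KO replicate 3, and its log2FC changed from 2.84 to 5.20 without WT replicate 3. Sox4, whose product binds and blocks GATA-3, fell from 39.5 ± 2.99 to 12.8 ± 1.23 CPM (log2FC -1.62, adjusted p 5.47e-05). Bcl6, a repressor of the Th2 fate in follicular helper cells, fell from 37.2 ± 13.1 to 13.1 ± 1.02 CPM (log2FC -1.51, adjusted p 0.00288). Zfpm1, which encodes the GATA cofactor FOG-1, was not called (log2FC 0.19, adjusted p 0.371).

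Of 6 receptor genes for cytokines that start type 2 responses, 1 was called higher and 1 lower (33.3%, beside 24.4% of all genes). Il1rl1, which encodes the IL-33 receptor ST2, rose from 55.7 ± 4.44 to 88.9 ± 2.69 CPM (log2FC 0.68, SE 0.08, edgeR adjusted p 0.000597). Il17rb, a chain of the IL-25 receptor, fell from 21.04 ± 1.27 to 7.22 ± 2.04 CPM (log2FC -1.54, SE 0.21, adjusted p 0.00105). The other 4 genes, among them Crlf2 of the TSLP receptor, were not called. Il7r, the other chain of that receptor, had 18753 counts in WT replicate 3 against 4345 and 4047 in replicates 1 and 2. Its log2FC was -0.41 with all samples, not called (adjusted p 0.602), and 0.74 without WT replicate 3, called higher in KO.

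Of 12 tested cytokines of helper T cells outside the 3 type 2 genes, 6 were called higher and 1 lower (58.3%, beside 24.4% of all genes), with a median log2FC of 2.36. Leaving out WT replicate 3, when 13 were tested, gave 11 higher and 1 lower, and requiring at least 10 counts in every sample, which removes genes near 0 in WT, gave 1 higher. Csf2, which encodes GM-CSF and lies on chromosome 11 with Il3, had 6, 0 and 4 counts in WT and 392, 319 and 374 counts in KO. It rose from 0.0944 ± 0.0845 to 9.76 ± 1.58 CPM (log2FC 6.61, SE 0.54, edgeR adjusted p 0.000127), with a log2FC of 7.25 without WT replicate 1. Il3, a growth factor of basophils and mast cells, had no count in WT and 104 to 106 counts in KO, at least 31.0-fold higher. Ifng, the Th1 cytokine gene, rose from 3.65 ± 0.952 to 84.0 ± 1.04 CPM (log2FC 4.52, SE 0.18, adjusted p 7.11e-06). Il21 rose from 0.613 ± 0.614 to 7.53 ± 0.579 CPM (log2FC 3.62, adjusted p 0.00247), with a log2FC of 4.84 without WT replicate 3. Il6 had 0, 0 and 3 counts in WT and 13, 31 and 17 in KO, a ratio of 18.7 with a 95% exact counting interval from 6.10 to 93.2, and all 3 WT counts were in replicate 3. Areg, the gene of the tissue repair factor amphiregulin, was called at 2.35 ± 3.18 and 14.2 ± 1.86 CPM, but lost the call without WT replicate 1 or any single KO replicate, and its log2FC changed from 2.60 to 4.70 without WT replicate 3. Penk, which encodes an enkephalin precursor, fell from 99.8 ± 25.04 to 57.1 ± 2.46 CPM (log2FC -0.81, adjusted p 0.00843). For 5 cytokine genes the call depended on WT replicate 3, which had the highest WT count of each. Il10, an anti-inflammatory cytokine gene of Tregs, was 19.6 ± 13.3 and 21.6 ± 0.437 CPM (log2FC 0.14, not called), and without that sample its log2FC was 0.85 (edgeR adjusted p 1.03e-05). Il22 had 0, 0 and 120 counts in WT and 124, 171 and 184 in KO, not called with all samples (adjusted p 0.329) and called higher without it (adjusted p 1.64e-07), when no WT count was left. Il2, with 4, 0 and 18 counts in WT and 33, 28 and 44 in KO, changed from a log2FC of 2.12, not called, to 3.98 (adjusted p 0.00207), and Il17f from 0.48, not called, to 1.87 (adjusted p 0.0266). Il17a had 4, 0 and 22 counts in WT and 10, 35 and 10 in KO, and with all samples it did not pass the low-count filter. Leaving out WT replicate 3 brought Il17a into the test, with a call as higher (edgeR adjusted p 0.0303). A fit of all 6 samples with no filter also tested it, and the cytokine list again gave 6 genes called higher. Il9, Il24 and Il31 had no row used here.

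The 9 tested chemokines, chemokine receptors and lipid receptors of type 2 cells were all called, 6 higher and 3 lower, beside 24.4% of all genes. Cysltr2, a leukotriene receptor gene at 8.84 ± 2.51 and 14.8 ± 1.05 CPM, was called at a log2FC of 0.74 (edgeR adjusted p 0.0222), but not without WT replicate 2, where it was 0.58. The receptors Ccr4 and Ccr8, which mark Th2 cells and skin-homing Tregs alike, were lower in KO. Ccr4 fell from 88.4 ± 22.8 to 31.0 ± 1.42 CPM (log2FC -1.51, edgeR adjusted p 0.000487) and Ccr8 from 67.2 ± 2.53 to 28.5 ± 1.90 CPM (log2FC -1.24, adjusted p 4.69e-05). Ccr3, the eotaxin receptor of eosinophils, fell from 4.39 ± 1.36 to 1.34 ± 0.117 CPM (log2FC -1.70, adjusted p 0.00413). Other receptors of leukotrienes rose. Cysltr1 went from 3.98 ± 0.871 to 25.3 ± 1.03 CPM (log2FC 2.67, adjusted p 4.31e-05) and Ltb4r1 from 5.07 ± 1.97 to 31.96 ± 0.952 CPM (log2FC 2.65, adjusted p 0.000299). The chemokine genes Ccl1, a CCR8 ligand, and Ccl24, a CCR3 ligand, rose to 3.28 ± 0.753 and 2.32 ± 0.172 CPM, from 1 to 11 and 0 to 12 counts in WT. Their log2FC of 4.05 and 3.81 became 4.65 without WT replicate 2 for Ccl1 and 4.88 without WT replicate 1 for Ccl24. Ccl11, Ccl17 and P2ry14 had no row used here.

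Beside Hdc, 3 of the 9 genes listed for the transport, breakdown and sensing of histamine had a row. All 3 were called higher, beside 24.4% of all genes called in either direction. Hrh4, a histamine receptor of blood cells, had 52, 41 and 4 counts in WT and 817, 857 and 766 counts in KO. It rose from 0.927 ± 0.704 to 21.8 ± 0.520 CPM (log2FC 4.54, SE 0.55, edgeR adjusted p 0.000673). Hrh2 went from 12.3 ± 3.74 to 20.9 ± 0.662 CPM (log2FC 0.76, adjusted p 0.0216), a call that was lost without WT replicate 2. Slc22a3, which encodes a transporter of histamine and other amines, had 1, 5 and 0 counts in WT and 30, 27 and 20 in KO (log2FC 3.47, adjusted p 0.0157), with a log2FC of 5.29 without WT replicate 2. The histamine-degrading enzymes Hnmt and Aoc1, the vesicle transporters Slc18a1 and Slc18a2, and the receptors Hrh1 and Hrh3 had no row used here.

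Ptgdr2 was set beside the genes that make, break down and sense prostanoids, of which 13 were tested. In KO 2 were called higher and 5 lower (53.8%, beside 24.4% of all genes), with a median log2FC of -0.17. Hpgds, the hematopoietic synthase of prostaglandin D2, fell from 8.12 ± 1.78 to 1.93 ± 0.151 CPM (log2FC -2.07, SE 0.23, edgeR adjusted p 0.000504), so that the enzyme and the receptor of this ligand differed in opposite directions. The prostaglandin E2 receptors Ptger2, Ptger3 and Ptger4 fell, with Ptger4 going from 156 ± 6.62 to 77.2 ± 6.12 CPM (log2FC -1.01, adjusted p 0.000105) and Ptger2 from 38.5 ± 13.3 to 11.4 ± 0.721 CPM (log2FC -1.76, adjusted p 0.00142). Tbxa2r, the thromboxane receptor, fell at a log2FC of -0.90 (adjusted p 0.00206). Pla2g4a and Ptgs1, which act early in prostanoid synthesis, rose from 0.238 ± 0.134 to 1.14 ± 0.469 CPM and from 0.344 ± 0.138 to 1.02 ± 0.205 CPM. The call of Ptgs1 was lost without KO replicate 1 or KO replicate 2. Ptgs2, the inducible cyclooxygenase gene, had 0, 0 and 14 counts in WT and 27, 11 and 21 in KO. Its log2FC of 1.92 was not called with all samples (adjusted p 0.249). It was called higher only without WT replicate 3 (adjusted p 0.00147), where no WT count was left. Ptgdr, the other prostaglandin D2 receptor, had no row used here.

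**Figure D3:**
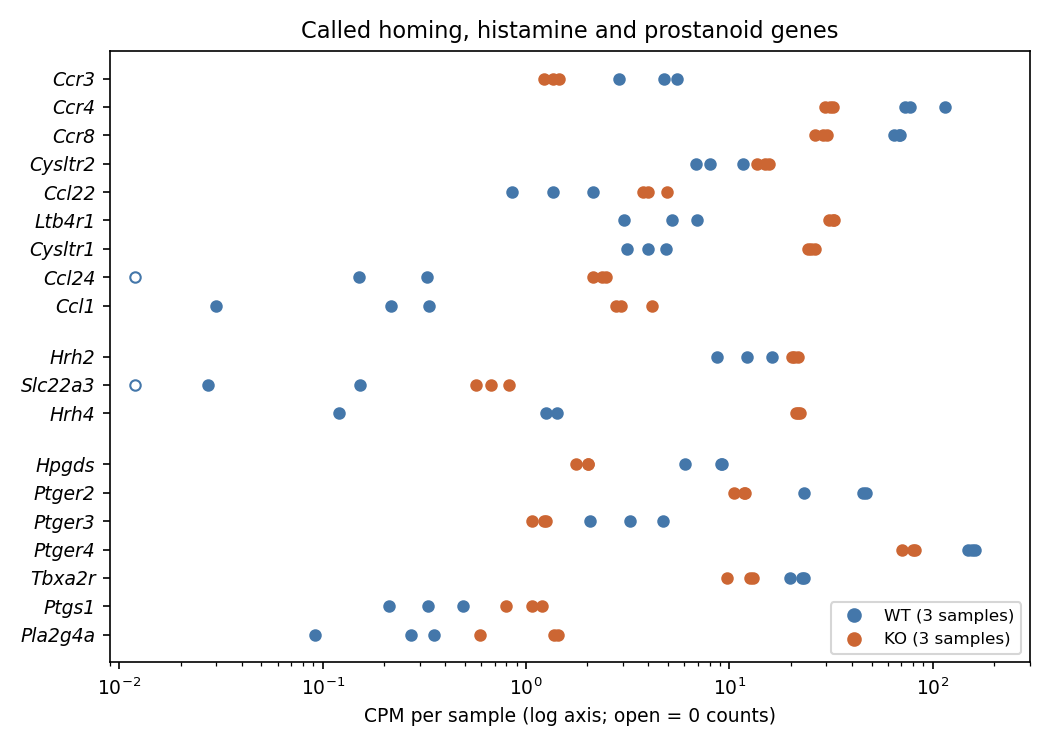
CPM (log axis) in each of 3 WT (blue) and 3 KO (orange) samples for the called genes of the homing, histamine and prostanoid lists, with open circles for 0 counts. The receptors Ccr3, Ccr4, Ccr8, Ptger2, Ptger3, Ptger4 and Tbxa2r and the synthase Hpgds lie lower in KO, and Hrh4 and the leukotriene receptors lie higher.

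Other genes of the GATA and MAF families were listed as well. Mafg was 27.8 ± 1.28 and 41.7 ± 1.56 CPM, just under the fold cutoff at a log2FC of 0.58, and was called at 0.60 to 0.62 without WT replicate 3, KO replicate 2 or KO replicate 3. Mafa had 2, 3 and 18 counts in WT and 14, 14 and 39 in KO, and its log2FC of 1.41 was not called with all samples but was called at 3.02 without WT replicate 3. Gata1 was 40.8 ± 5.16 and 39.4 ± 1.14 CPM (log2FC -0.05, adjusted p 0.730). Gata2, the GATA gene of mast cells and basophils, had no row used here.

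Genes around the members were compared next, taking those with any part within 500 kb of a member's start. Around Il4, Il5 and Il13, 12 neighbors were tested, and 3 were called higher and 1 lower, beside 24.4% called over all genes. Their median log2FC was 0.30. Kif3a, a kinesin gene on the Il4 side, rose from 5.33 ± 1.29 to 12.5 ± 0.863 CPM (log2FC 1.22, SE 0.19, edgeR adjusted p 0.00201). Irf1, an interferon response gene beyond Il5, rose from 281 ± 102.2 to 559 ± 26.5 CPM (log2FC 0.99, SE 0.22, adjusted p 0.00963). Pdlim4 rose from 0.951 ± 0.0433 to 4.05 ± 0.288 CPM (log2FC 2.09, adjusted p 0.000678). Slc22a5, a carnitine transporter gene, was called lower at 68.8 ± 62.0 and 27.5 ± 0.417 CPM (log2FC -1.32, adjusted p 0.0879), but not without WT replicate 3, where its log2FC was -0.27, or any single KO replicate. Rad50 was 53.9 ± 2.97 and 71.6 ± 1.56 CPM, a log2FC of 0.41 that is under the fold cutoff.

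The 4 other genes lie on other chromosomes or far apart, and their neighbors were read beside the 24.4% called over all genes. Near Hdc, Atp8b4 encodes a phospholipid flippase subunit and starts 118.6 kb away. It rose from 2.04 ± 0.857 to 105.9 ± 0.213 CPM (log2FC 5.70, SE 0.24, edgeR adjusted p 8.79e-06). Of the 11 tested neighbors of Hdc, the other call was Ncaph, at a log2FC of 1.75 (adjusted p 0.00277). Slc27a2, Gabpb1 and Usp8 start nearer to Hdc than Atp8b4 and were not called (log2FC -0.67, 0.19 and 0.09). Among 22 tested neighbors of Ptgdr2, Slc15a3, Tmem109, Ms4a4a and Ms4a4c were higher (log2FC 2.09, 0.86, 2.34 and 0.83) and Cd5 was lower (log2FC -0.88). Without WT replicate 3 the log2FC of Ms4a4a was 3.18. Near Gata3, 9230102O04Rik was the only call among 6 (log2FC 2.48, adjusted p 0.0291), and its counts are uncertain because it lies within Gata3. Its log2FC was 3.20 without WT replicate 2, and it was not called without KO replicate 1 (log2FC 2.10). Near Maf a single gene, Wwox, was tested, and it was not called.

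**Figure D4:**
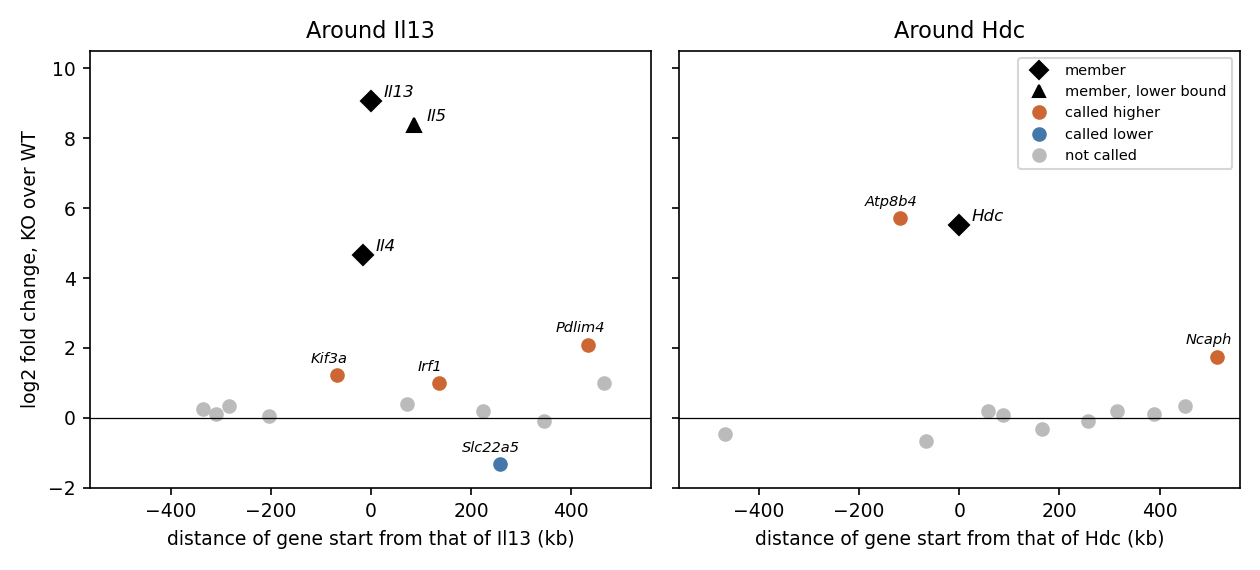
Log2 fold change (KO over WT) of tested genes against the distance of their start from that of Il13 (left) or Hdc (right) in kilobases, with black symbols for the type 2 effector genes, a triangle for the lower bound of Il5 and colored circles for called neighbors. The 3 cytokine genes stand above all 12 of their tested neighbors, whereas Atp8b4 lies at 5.70 and Hdc at 5.52. The type 2 effector genes were chosen by their fold changes in these samples and the neighbors were not, so nothing is read from the members standing above neighbors.

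Other cells make several of these transcripts, so their markers were examined. Over all genes tested, 11.9% were called higher and 12.5% lower, and the marker calls here and in the next paragraph stand beside these shares. The cells were sorted for CD4, CD25 and YFP from the Foxp3 locus. The purity of these samples is not given in the sources used here. Hdc, Il4 and Il13 are known in mast cells and basophils. Of 12 markers of these cells only Kit and Cd200r3 had a row, neither was called, and their summed level was 21.1 to 31.1 CPM in WT and 21.8 to 27.3 CPM in KO, nearly all of it Kit. Of 7 eosinophil markers 2 had a row, with sums of 2.96 to 5.86 and 2.31 to 3.01 CPM, and Siglecf was called higher and Ccr3 lower. The 7 markers of type 2 innate lymphoid cells summed to 215 to 286 CPM in WT and 442 to 456 CPM in KO. Of these Id2, Areg, Arg1 and Il1rl1 were called higher and Klrg1 and Il17rb lower, and Tregs are known to express most of them as well.

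Markers of some other cells were also higher in KO, at sums below those of the T cell markers. For comparison, KO means of Il4, Ptgdr2, Il5 and Hdc were 8.65, 11.3, 30.3 and 37.0 CPM. Those of Il13, Maf and Gata3 were 127, 168 and 244 CPM. Sums for 5 of 10 neutrophil markers were 0.598 to 1.55 CPM in WT and 5.56 to 7.91 CPM in KO, with 3 called higher, and S100a8 and S100a9 had no count in WT. Sums for 6 of 7 monocyte and macrophage markers were 16.7 to 28.0 and 48.0 to 55.8 CPM, with 5 called higher, and sums for the 4 NK cell markers were 1.96 to 2.64 and 5.94 to 9.03 CPM, with 3 called higher. B cell sums were 18.0 to 20.1 and 12.1 to 12.6 CPM with 1 of 5 called lower, and CD8+ T cell sums were 9.32 to 13.2 and 12.02 to 12.7 CPM with Cd8a called higher. The 5 T cell markers summed to 2024 to 2241 CPM in WT and 1936 to 2032 CPM in KO with 1 called lower, and the 5 Treg markers to 3025 to 4324 and 2420 to 2456 CPM with Foxp3 and Ikzf2 called lower. The part of these cells in the levels of the type 2 effector genes was not tested.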

How the data were processed

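Reads were filtered with SOAPnuke, mapped with HISAT2 on mm10 and quantified with StringTie, and each read kept a single alignment, according to the study's methods. The authors deposited raw counts, as whole numbers, in 1 table of genes by the 6 samples, whose smallest gene sum was 60, so genes with fewer counts had been removed. How whole numbers were obtained, the strand setting and the annotation are not given in the sources used here.

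Groups came from the labels, and the age of the mice and the sort from the methods. Counts were tested with R 4.3.3 and edgeR 4.0.16: filterByExpr (minimum count 10), TMM scaling, the quasi-likelihood F-test of KO against WT over all 6 samples with no covariate, two-sided, and Benjamini-Hochberg adjustment over 13594 genes. The SE was the log2 fold change divided by the square root of F. The study's cutoffs were used (fold 1.5, p 0.05, adjusted p 0.1). DESeq2 1.42.0 was an alternative. Where WT had no count, the bound used 3 counts in the WT library with the highest such limit. Profile distances used log2(CPM + 0.1), and the type 2 effector genes were left out of the candidates. The procedure was tested on simulated data.

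The members and lists were chosen with earlier results of these data known. Named genes were the 7 members, called genes of the pathway lists in order of size (up to 4 for each list and direction), a few set genes (Stat6, Tbx21, Il1rl1, Csf2), overlapping genes, called neighbors and the 3 nearest profiles. Genes named as not called or for a call that changed when a sample was left out, and Il21, Areg, Tbxa2r, Junb, Il7r, Il4ra, Rad50 and Mafg, were chosen after their values were seen. Of the table's symbols, 97.87% were in GENCODE M21. Promoter windows came from RefSeq (GRCm38.p6), with 6 of the 7 members matched. Some members of the lists were left unreported.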

Additional observations from a re-analysis of the deposited data

How the results depend on the processing

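The 6 type 2 effector genes called higher kept that call in every alternative that could fit them. This contrast chose the genes and the alternatives reuse its samples, so the kept calls are not independent evidence. With at least 10 counts in every sample Il4, Il5, Il13 and Ptgdr2 were left out, and 15 pathway genes were called higher instead of 27. Maf stayed under the fold cutoff in all fits and changed sign with DESeq2 (0.00492), RLE size factors (0.00499), the replicate block (0.0386) and single samples left out (-0.176 to 0.311, highest without WT replicate 3). Over all genes an adjusted p under 0.05 without a fold cutoff gave 2610 higher and 2634 lower, and glmTreat against 1.5-fold gave 941 and 745, so that 55.8% of calls were higher under glmTreat, 48.8% in the test used and 44.8% with library totals alone. Around the cytokine genes the adjusted p alone gave 5 higher neighbors, and the single lower neighbor became 0 with DESeq2, the adjusted p alone, glmTreat or the replicate block, and ranged from 0 to 1 with single samples left out. With the longest transcript the ratio of Il13 to Il4 was 7.48 and that of Il5 to Il4 was 1.39, because the Il4 length changed.

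Pathway genes that changed sign were uncalled in the test used, and with single samples left out they ranged as follows: Abcc4 from -0.0232 to 0.113, Crlf2 from -0.152 to 0.0457, Gata1 from -0.117 to 0.0526, Il10 from -0.124 to 0.852, Il13ra1 from -0.269 to 2.01, Il17ra from -0.166 to 0.0195, Il7r from -0.766 to 0.739, Jak3 from -0.0927 to 0.00514, Junb from -0.949 to 0.137, Nfatc1 from -0.138 to 0.0508, Nfil3 from -0.390 to 0.805, Nrl from -1.04 to 0.375, Pparg from -0.0864 to 0.525, Ptgir from -0.0161 to 0.224 and Tbxas1 from -0.487 to 0.130. With the replicate block Il7r was 0.0299 and Nfil3 0.201. Over 95 pathway genes and the alternatives, 1228 values kept their direction and side of the cutoffs, 34 gained a call, 23 lost one and 22 changed sign. The cause of these changes was not tested.

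Same-numbered samples did not deviate together (correlations 0.0405, 0.0398 and -0.0106), so the numbers pair no samples. With the replicate block 1629 genes were higher and 1561 lower. At this depth a WT level under 0.0815 to 0.0913 CPM could not be told from 0, and ratios of Il13, Il5 and Ptgdr2 rest on 0 to 14 WT counts a sample.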
